A study of Homo sapiens with 12 samples.

Results

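The genes described are 8 inflammatory chemokine and cytokine genes, *CCL2*, *CXCL1*, *CXCL2*, *CXCL8*, *CCL5*, *IL6*, *CX3CL1* and *CXCL16*, out of 40173 Ensembl gene IDs quantified by RNA sequencing. They were listed by name, with earlier results of these data known, and all 8 were found in the table. Expression was measured in 624Mel, an established human melanoma cell line with a melanocytic profile, in 4 conditions with 3 libraries each. siCTRL cells were transfected with a non-targeting control siRNA and siMITF cells with a single siRNA construct against *MITF*, the master transcription factor of the melanocyte lineage. siCTRL + IFNγ and siMITF + IFNγ cells received the same siRNAs and, 24 h after transfection, 5 ng/mL interferon gamma (IFNγ) for 24 h. By these times the cells with IFNγ were collected 48 h after transfection, and the same time is taken for the cells without it. Every condition, siCTRL included, carried a transfected siRNA. The design asks how loss of MITF, which moves melanoma cells towards a dedifferentiated state, alters the response to IFNγ. Since 1 cell line and 1 siRNA against MITF were used, effects of MITF loss and other effects of that siRNA cannot be told apart.

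Chemokines are small secreted proteins that draw leukocytes along a gradient by binding receptors on their surface. CCL2 draws monocytes through CCR2, CXCL1, CXCL2 and CXCL8 draw neutrophils through CXCR2 (and CXCL8 also through CXCR1), and CCL5 draws T cells and monocytes. CX3CL1 and CXCL16 are made as membrane-anchored proteins and are released by ADAM proteases, while IL6 is a cytokine that signals through IL6R and gp130 (*IL6ST*) to STAT3. In many cell types these genes are switched on through NF-κB, AP-1 and C/EBP factors, and melanoma cells are known sources of CXCL8, CXCL1, CCL2 and IL6.

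Values are TPM, each gene's share of all transcripts scaled to a fixed total per library, which correct for transcript length, so that levels of different genes can be set side by side. TPM do not hold the number of reads, and the depth behind each value is unknown. The listed values summed to between 975336 and 982632 per library, 11850 to 12377 gene IDs reached 2 TPM in a library, and the share of mitochondrial genes ran from 7.42% to 16.9%. In each condition the library numbered 2 had the lowest mitochondrial share, 7.42% (siCTRL), 8.45% (siCTRL + IFNγ), 10.1% (siMITF) and 12.7% (siMITF + IFNγ), against 12.8% to 16.9% in the other libraries. *MITF* had 187, 229 and 217 TPM in the siCTRL libraries and 36.0, 49.7 and 41.7 TPM in the siMITF libraries. Of the 8 melanocytic markers examined all reached 2 TPM, whereas all 6 lymphoid and all 6 endothelial markers stayed under 1 TPM in every library. In the 6-gene keratinocyte or epithelial list 5 markers stayed under 1 TPM in every library and 1, *KRT10*, passed 2 TPM. That list summed to 48.6 to 61.0 TPM in siCTRL and 48.2 to 55.2 TPM in siMITF libraries. With IFNγ it summed to 40.8 to 46.1 TPM in siCTRL and 39.0 to 49.2 TPM in siMITF cells.

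Differences were tested with limma on log2(TPM + 1), with all 12 libraries in one fit and Benjamini-Hochberg adjustment over the 12773 gene IDs whose mean reached 2 TPM in any condition. Several thresholds had to be met for a change: an adjusted p under 0.05, a log2 difference of 1 or more in size, and a mean of 2 TPM or more on either side of the comparison. The words rose and fell are kept for genes that met all 3. Of the 8 genes, 5 (*CCL2*, *CXCL8*, *CXCL1*, *CXCL2* and *IL6*) passed the filter on low values and 3 (*CCL5*, *CX3CL1* and *CXCL16*) did not. The study's methods state in general that experiments were repeated independently, but the labels do not say which culture each of these libraries came from, and the p-values measure the spread between the libraries, part of which may be technical. Comparisons that share a condition share its libraries.

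*CCL2* (ENSG00000108691, chromosome 17 from 34255274 to 34257208 on the plus strand, GRCh38), the monocyte chemoattractant, had the widest range of the 8 genes. In siCTRL libraries it was at 1.46, 2.07 and 1.79 TPM, and with IFNγ at 15.3, 17.1 and 12.7 TPM. In siMITF libraries it was at 45.9, 45.8 and 35.9 TPM, and with both treatments at 158, 134 and 117 TPM. The 4 conditions did not overlap in any library and lay in the order siCTRL, siCTRL + IFNγ, siMITF, siMITF + IFNγ. Mean TPM were 1.77 ± 0.307, 15.1 ± 2.20, 42.5 ± 5.77 and 137 ± 20.7 (SD, n = 3) in that order.

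*CCL2* rose with siMITF by 3.97 on the log2 scale (standard error 0.14, limma adjusted p = 1.4e-09), a 24.0-fold ratio of mean TPM. It rose with IFNγ in siCTRL cells by 2.53 (limma adjusted p = 4.9e-08), or 8.50-fold in mean TPM. In siMITF cells IFNγ added a further rise of 1.66 (limma adjusted p = 3.4e-06), or 3.21-fold. Under IFNγ, siMITF cells were 3.10 above siCTRL cells on the log2 scale (limma adjusted p = 1.2e-08), a 9.07-fold ratio. The rise with both treatments together, 5.63 on the log2 scale and 77.0-fold in mean TPM, exceeded either single rise.

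In bulk RNA, a change in the number of cells that express a gene and a change in RNA per cell cannot be told apart. By the study's own account, its molecular work used melanoma cell lines grown as monocultures. In the 6-gene myeloid list, 4 markers stayed under 1 TPM in every library. Its summed level was 3.53 to 4.09 TPM in siCTRL, 2.69 to 3.24 in siCTRL + IFNγ, 5.82 to 6.50 in siMITF and 4.90 to 5.17 in siMITF + IFNγ libraries. Its most abundant marker was *LYZ*, lysozyme, with a mean of 2.44 TPM over siCTRL and 4.74 TPM over siMITF libraries, while *CD14* and *AIF1* had condition means of at most 0.237 and 0.0693 TPM. *PTPRC*, the pan-leukocyte marker CD45, had condition means of 0.212, 0.300, 0.170 and 0.616 TPM, and *CSF1R*, a macrophage receptor, of 0.225, 0.192, 0.310 and 0.533 TPM, in the order siCTRL, siCTRL + IFNγ, siMITF, siMITF + IFNγ. Both were thus highest with both treatments, as *CCL2* was, but *PTPRC*, unlike *CCL2*, had a lower mean in siMITF than in siCTRL libraries. *LYZ* was lower with IFNγ, by log2 differences of -0.49 in siCTRL cells and -0.51 in siMITF cells. Their limma adjusted p-values were 0.00453 and 0.00238 with replicate numbers in the fit as a block. The 6-gene fibroblast list summed to 6.23 to 7.83, 4.03 to 4.44, 10.3 to 12.5 and 6.41 to 7.32 TPM in the 4 conditions in the same order, with *COL1A2* and *PDGFRB* at condition means of at most 0.266 and 0.134 TPM. *LUM* (lumican) and *PDGFRA*, which made up most of that sum, had means of 4.77, 2.57, 6.91 and 4.06 TPM and of 0.957, 0.834, 2.94 and 1.16 TPM. With siMITF their log2 differences were 0.46 and 0.98 (limma adjusted p = 0.0254 and 0.00316), under the fold threshold. The part of these markers in the *CCL2* values was not tested.

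**Figure D1:**
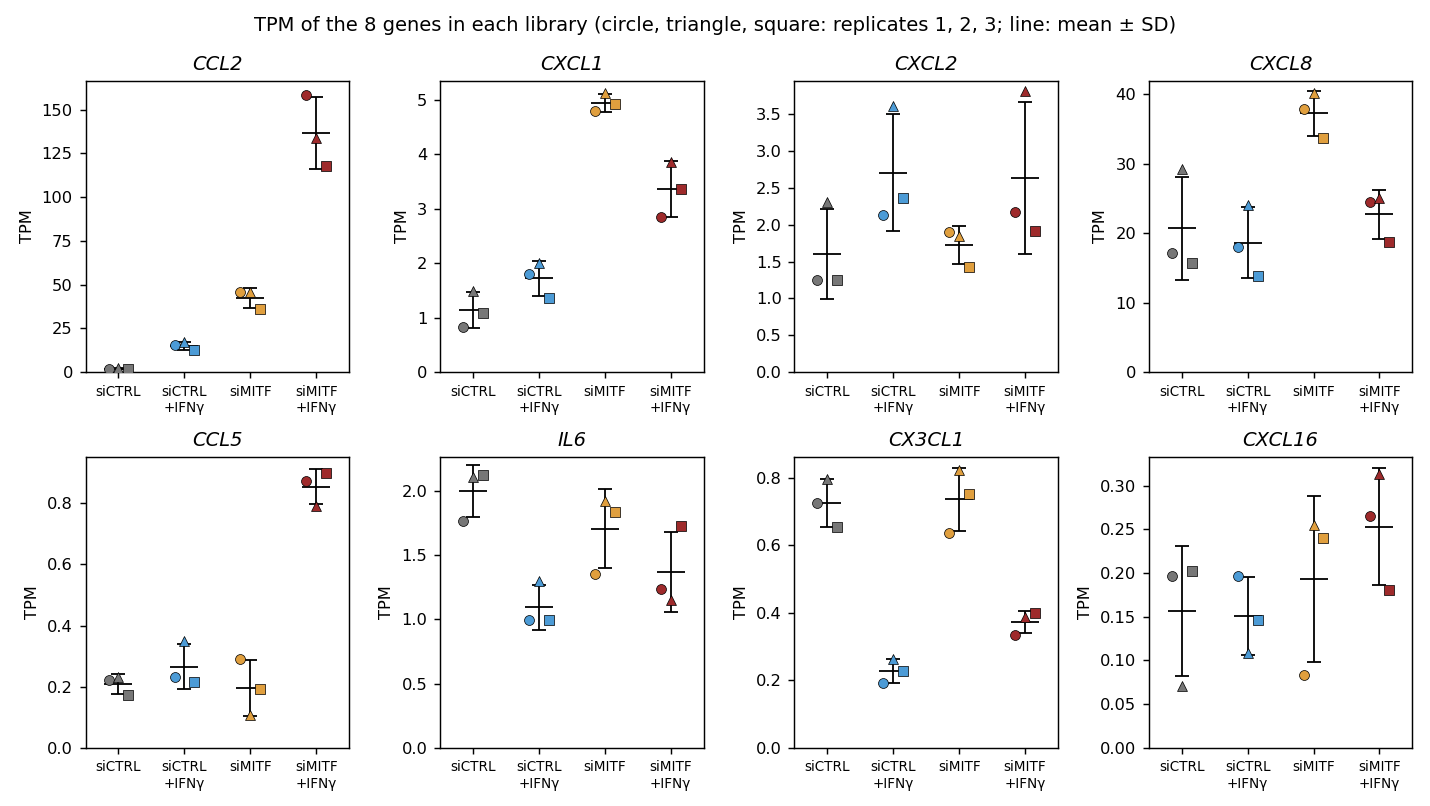
TPM (vertical axis, from 0) of the 8 genes in the 12 libraries, by condition (horizontal axis), with circles, triangles and squares for replicates 1, 2 and 3 and lines for the mean ± SD of 3 libraries. *CCL2* climbed from 1.77 TPM on average in siCTRL to 137 TPM in siMITF + IFNγ, *CXCL8* and *CXCL1* were highest in siMITF without IFNγ, and *CX3CL1* was lower in both IFNγ conditions.

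*CXCL8* (ENSG00000169429, chromosome 4 from 73740519 to 73743716 on the plus strand), the neutrophil chemoattractant interleukin 8, was the most abundant of the 8 genes in siCTRL cells. It was at 17.1, 29.2 and 15.7 TPM in siCTRL libraries and at 18.0, 24.0 and 13.9 TPM with IFNγ. It was at 37.8, 40.2 and 33.7 TPM in siMITF and at 24.5, 25.0 and 18.6 TPM in siMITF + IFNγ libraries. The siMITF libraries lay above all others, and the other 3 conditions overlapped. With siMITF the log2 difference was 0.87 (95% interval 0.38 to 1.36, limma adjusted p = 0.00936), which passed the p threshold and not the fold threshold. Without siCTRL replicate 2, which held 29.2 TPM, the difference was 1.13 and met all thresholds. IFNγ gave a log2 difference of -0.70 in siMITF cells (limma adjusted p = 0.0451; 0.134 when all 29003 gene IDs with a value above 0 were tested) and of -0.13 in siCTRL cells (adjusted p = 0.781). The difference between these IFNγ effects was -0.57 (95% interval -1.26 to 0.12, limma adjusted p = 0.778), so the effects were not shown to differ. With replicate numbers in the fit as a block, the limma adjusted p was 9.2e-05 for siMITF and 9.4e-04 for IFNγ in siMITF cells, both under the fold threshold. It was 0.135 for the difference between the IFNγ effects.

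*CXCL1* (ENSG00000163739, chromosome 4 from 73869393 to 73871308 on the plus strand), another CXCR2 ligand, was lower than *CXCL8* in every library. It was at 0.831, 1.49 and 1.09 TPM in siCTRL, 1.80, 2.0 and 1.37 TPM in siCTRL + IFNγ, 4.80, 5.12 and 4.91 TPM in siMITF and 2.84, 3.86 and 3.36 TPM in siMITF + IFNγ libraries. Both siMITF conditions lay above both siCTRL conditions, and siMITF libraries without IFNγ lay above those with it. The mean of *CXCL1* reached 2 TPM in the siMITF conditions alone, at 4.95 TPM without and 3.36 TPM with IFNγ. It thus passed the filter through the conditions where it was highest. *CXCL1* rose with siMITF by 1.49 on the log2 scale (standard error 0.14, limma adjusted p = 3.8e-06) and with both treatments by 1.03 (adjusted p = 6.3e-05). The second call was lost without siCTRL replicate 1 (0.93) or without siMITF + IFNγ replicate 2 (0.95), where the difference was under 1. IFNγ in siMITF cells gave -0.46 (limma adjusted p = 0.0354; 0.0889 with all 29003 gene IDs tested), and siMITF under IFNγ gave 0.68 (adjusted p = 0.00225), both under the fold threshold. In siCTRL cells the IFNγ difference was 0.35 (95% interval 0.05 to 0.65, limma adjusted p = 0.122, and 0.0417 with replicate numbers in the fit as a block).

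*CXCL2* (ENSG00000081041, chromosome 4 from 74097040 to 74099196 on the minus strand), the third CXCR2 ligand of the set, met the thresholds in no comparison. It was at 1.24, 2.30 and 1.24 TPM in siCTRL, 2.14, 3.62 and 2.36 TPM in siCTRL + IFNγ, 1.91, 1.85 and 1.43 TPM in siMITF and 2.17, 3.81 and 1.91 TPM in siMITF + IFNγ libraries. Replicate 2 was the highest library in 3 of 4 conditions. The log2 difference with siMITF was 0.09 (95% interval -0.38 to 0.56, limma adjusted p = 0.784). With IFNγ it was 0.52 in siCTRL cells (adjusted p = 0.149) and 0.38 in siMITF cells (adjusted p = 0.242). When replicate numbers were added to the fit as a block, these differences had limma adjusted p-values of 0.0140 and 0.0435, still under the fold threshold.

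*CXCL8*, *CXCL1* and *CXCL2* lie within 358.7 kb of chromosome 4. *CXCL8* and *CXCL1* were highest in replicate 2 in 4 of 4 conditions, the replicate with the lowest mitochondrial share, and the part of that share in their values was not tested. *CXCL1* and *CXCL2* are close in sequence: 13.7% of the 31-base words of annotated *CXCL1* transcripts were shared with other genes (12.4% with *CXCL2*), and 23.6% of those of *CXCL2* (14.0% with *CXCL3* and 11.6% with *CXCL1*). Reads from these genes could therefore be split by the authors' quantification, and their levels are uncertain to that extent. *CXCL8* and *CCL2* shared no such word with another gene.

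The sequence before the annotated start of 4 of the 8 genes (*CXCL1*, *CXCL2*, *CXCL8* and *IL6*) was taken from RefSeq promoters on GRCh38.p14 and is shown because *CXCL1* and *CXCL2* share long stretches there, while *CXCL1* rose with siMITF and *CXCL2* did not pass the test. Each runs 5′ to 3′ on the gene's strand from 250 bases before the RefSeq start, from which all distances are counted. For *CXCL2*, *CXCL8* and *IL6* this start, at 74099195, 73740569 and 22727200, lies inside the gene span given here from GENCODE. Bases inside an exon of the same gene in GENCODE were left out. Capitals mark exact matches to the NF-κB consensus, the AP-1 motif TGANTCA and the C/EBP motif TTNNGNAA, searched on both strands.
CXCL1 (chr4:73869143-73869392, plus strand): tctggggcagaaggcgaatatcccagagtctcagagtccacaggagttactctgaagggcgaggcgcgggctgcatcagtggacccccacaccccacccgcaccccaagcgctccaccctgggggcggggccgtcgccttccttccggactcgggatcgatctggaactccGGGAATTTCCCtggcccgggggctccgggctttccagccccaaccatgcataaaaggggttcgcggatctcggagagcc
CXCL2 (chr4:74099197-74099445, minus strand): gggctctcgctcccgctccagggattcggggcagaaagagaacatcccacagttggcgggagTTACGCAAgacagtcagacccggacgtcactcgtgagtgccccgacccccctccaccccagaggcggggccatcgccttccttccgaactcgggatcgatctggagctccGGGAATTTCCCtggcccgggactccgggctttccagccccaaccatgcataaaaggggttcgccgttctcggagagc
CXCL8 (chr4:73740319-73740518, plus strand): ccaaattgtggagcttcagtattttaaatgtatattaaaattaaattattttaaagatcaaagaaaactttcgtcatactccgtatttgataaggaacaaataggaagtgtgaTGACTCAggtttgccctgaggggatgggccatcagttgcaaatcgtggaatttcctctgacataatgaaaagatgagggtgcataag
IL6 (chr7:22726950-22727146, plus strand): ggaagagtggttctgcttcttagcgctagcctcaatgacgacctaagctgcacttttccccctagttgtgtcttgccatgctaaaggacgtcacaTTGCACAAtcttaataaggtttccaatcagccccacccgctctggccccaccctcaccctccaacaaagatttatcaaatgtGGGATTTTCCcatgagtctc

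*CXCL1* and *CXCL2* carried the same NF-κB match, which began 79 and 78 bases before their starts and was read on both strands with a shift of 1 base. Their longest shared run, close to the start, was 42 bases. Over the 120 bases next to the start, compared position by position without gaps, 67.5% of their positions were identical. Before the shared run the sequences are shifted against each other, as the NF-κB matches at 79 and 78 show, so this share understates their likeness. *CXCL8* held GGAATTTCC, 9 of the 10 bases of that match, 91 bases before its start, so it did not count as a match, and it had an AP-1 match 137 bases before its start. *IL6* had an NF-κB match 73 bases and a C/EBP match 155 bases before its start, and *CXCL2* a C/EBP match at 188. Of 35116 promoter windows of the same kind, 5.21% held an NF-κB match, 6.57% an AP-1 match and 33.2% a C/EBP match. In none of these 4 windows was there a match to the GAS motif TTCNNNGAA (6.57% of all windows), the interferon-stimulated response element core (3.02%), the M-box CATGTG (9.42%) or the E-box CACGTG (6.34%). A match describes letters in a window and not binding.

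*IL6* (ENSG00000136244, chromosome 7 from 22725884 to 22732002 on the plus strand), the cytokine of the set, stayed near 2 TPM or below. It was at 1.77, 2.11 and 2.13 TPM in siCTRL, 0.995, 1.30 and 0.996 TPM in siCTRL + IFNγ, 1.36, 1.93 and 1.84 TPM in siMITF and 1.24, 1.15 and 1.73 TPM in siMITF + IFNγ libraries. All siCTRL + IFNγ libraries lay under all siCTRL libraries, a log2 difference of -0.52 (limma adjusted p = 0.0200) that was under the fold threshold, and siMITF and siCTRL libraries overlapped. Its mean reached 2 TPM in siCTRL alone, at 2.0 ± 0.203 TPM (SD, n = 3), so it passed the filter through the condition where it was highest. Of its 31-base words 8.38% were shared with *IL6-AS1*, an antisense gene at the locus. The library kit did not keep the strand, so reads from the parts that overlap cannot be told apart.

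The 3 genes under the filter were low in every library, and for them the smallest p an exact permutation test of 3 against 3 libraries allows is 0.1. *CCL5* (ENSG00000271503, chromosome 17 from 35871491 to 35880793, minus strand) was at 0.874, 0.790 and 0.900 TPM in siMITF + IFNγ libraries, against 0.106 to 0.350 TPM in the other 9, with no overlap. Its ratio of mean TPM with IFNγ in siMITF cells was 4.36 (exact permutation p = 0.1, two-sided, the smallest possible). When limma was run without the filter, its log2 difference in that comparison was 0.64 (adjusted p = 1.2e-04) and with IFNγ in siCTRL cells 0.07 (adjusted p = 0.715). Both were under the fold threshold. Of the 31-base words of *CCL5*, 25.2% were shared with other genes.

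*CX3CL1* (ENSG00000006210, chromosome 16 from 57372477 to 57385044, plus strand), the membrane-anchored ligand of CX3CR1, was at 0.727, 0.797 and 0.655 TPM in the siCTRL and at 0.636, 0.823 and 0.752 TPM in the siMITF libraries. With IFNγ it was at 0.191, 0.264 and 0.228 TPM in siCTRL and 0.336, 0.387 and 0.398 TPM in siMITF cells. Both IFNγ conditions lay wholly under both conditions without IFNγ. Without the filter the log2 differences with IFNγ were -0.49 in siCTRL cells (limma adjusted p = 2.5e-04) and -0.34 in siMITF cells (limma adjusted p = 0.00225). Both were under the fold threshold. *CXCL16* (ENSG00000161921, chromosome 17 from 4733533 to 4739928, minus strand), the ligand of CXCR6, ranged from 0.0709 to 0.314 TPM over all libraries, and the conditions overlapped in each comparison.

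In siCTRL cells *CXCL8* was first, at 20.7 ± 7.43 TPM (SD, n = 3), and was followed without overlap by *IL6*, *CCL2*, *CXCL2* and *CXCL1*, whose neighbours in that order overlapped. In siCTRL + IFNγ cells *CXCL8* and *CCL2* overlapped at the top, at 18.6 ± 5.09 and 15.1 ± 2.20 TPM. In siMITF cells *CCL2* and *CXCL8* overlapped again, at 42.5 ± 5.77 and 37.3 ± 3.26 TPM. In siMITF + IFNγ cells *CCL2* stood alone above *CXCL8*, at 137 ± 20.7 and 22.7 ± 3.52 TPM. The summed TPM of the 8 genes went from 28.3 ± 8.67 to 39.8 ± 8.46, 89.3 ± 9.08 and 168 ± 23.0 in the order siCTRL, siCTRL + IFNγ, siMITF, siMITF + IFNγ. *CCL2* made up 6.46%, 38.2%, 47.5% and 81.2% of this sum, and *CXCL8* 72.4%, 46.3%, 41.8% and 13.5%.

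**Figure D2:**
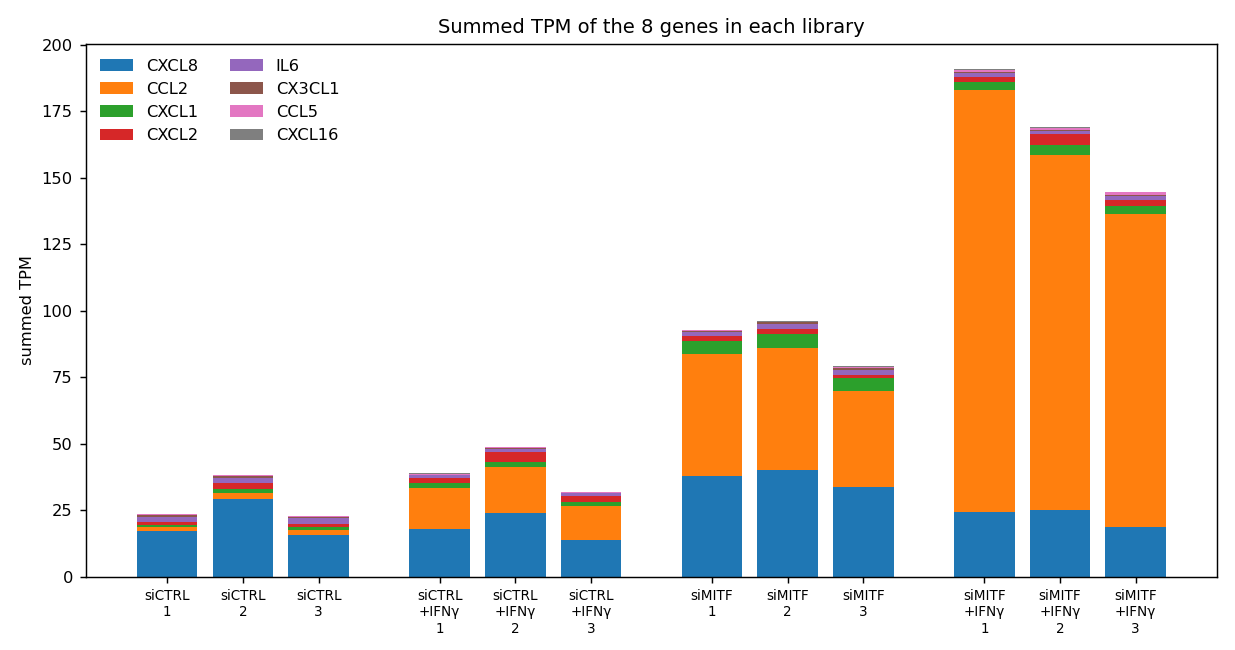
Summed TPM (vertical axis, from 0) of the 8 genes in each of the 12 libraries (horizontal axis, grouped by condition), with 1 colour per gene. *CXCL8* made up most of the bar in siCTRL libraries (72.4% on average) and *CCL2* most of it in siMITF + IFNγ libraries (81.2%).

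Counted over the 5 genes that passed the filter, 2 rose with siMITF (*CCL2* and *CXCL1*) and none fell, where 3.22% of all tested gene IDs rose. *CXCL1* was among the 5 only through the siMITF conditions, where it was highest. By the adjusted p alone 3 were higher, with *CXCL8* added, against 21.0% of all tested. With IFNγ, 1 rose in siCTRL cells (2.42% of all tested) and 1 in siMITF cells (2.72% of all tested), in each case *CCL2*. With siMITF under IFNγ 1 rose, again *CCL2* (3.12% of all tested), and with both treatments against siCTRL 2 rose, *CCL2* and *CXCL1* (5.61% of all tested). By non-overlap of libraries, 3 of the 8 genes were higher with siMITF, against 21.6% of the 29003 gene IDs with a value above 0. With IFNγ in siCTRL cells 1 was higher and 2 were lower (8.86% and 9.97% of all), and with IFNγ in siMITF cells 3 were higher and 3 lower (8.08% and 15.5% of all).

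**Figure D3:**
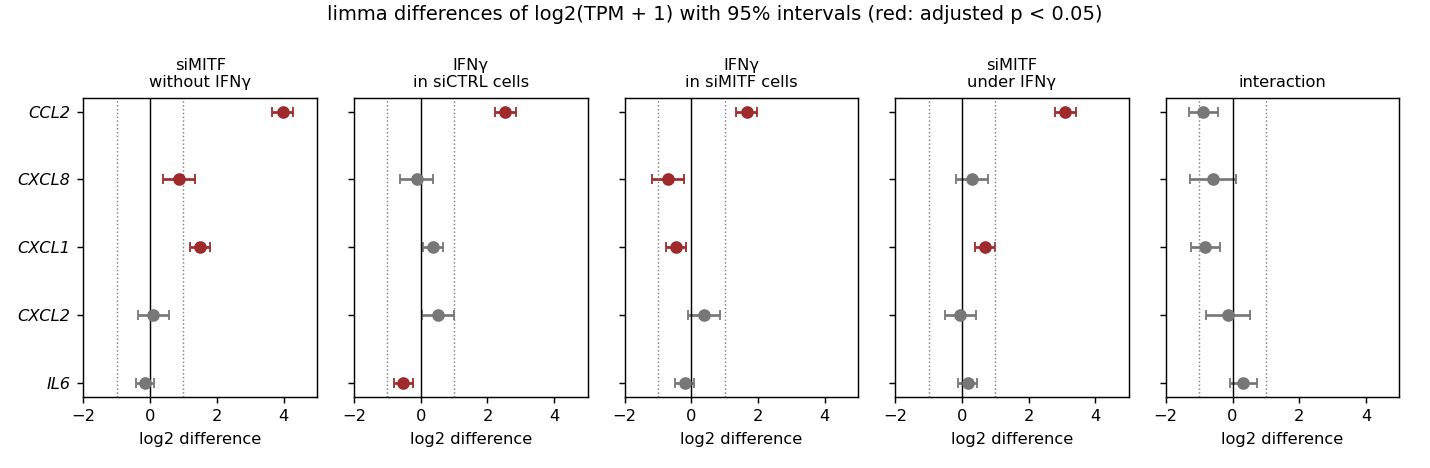
Differences in log2(TPM + 1) from limma (horizontal axis) with 95% intervals for the 5 genes that passed the filter (vertical axis), in 4 comparisons and the interaction, with red for an adjusted p under 0.05 and dotted lines at -1 and 1. *CCL2* was above 1 in all 4 comparisons, *CXCL1* with siMITF alone among them, and *CXCL8* and *CXCL1* were below 0 with IFNγ in siMITF cells and above 0 with siMITF.

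The question of whether IFNγ acts differently in siMITF cells depends on the scale for *CCL2*. On the log2 scale the interaction, which subtracts the IFNγ effect of siCTRL cells from that of siMITF cells, was -0.87 (95% interval -1.32 to -0.43, limma adjusted p = 0.0851). Its limma adjusted p was 0.0112 when replicate numbers entered the fit as a block. With a pseudocount of 0.1 or 0.5 in place of 1, the interaction was -1.34 and -1.11 and passed both thresholds (limma adjusted p = 0.0200 and 0.0365). In TPM, the mean with both treatments, 137 ± 11.9 (standard error), stood above the sum of the single effects, 55.8 ± 3.57, by 80.7 ± 12.4, a 2.45-fold ratio. The product of the single ratios was 204, above the 77.0-fold ratio seen with both treatments, so *CCL2* was above the sum and under the product of its single effects.

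*CXCL1* and *CXCL8* were below the sum in TPM. *CXCL1* departed by -2.18 ± 0.410 TPM (standard error) and *CXCL8* by -12.5 ± 5.89 TPM. For *CXCL1* the log2 interaction was -0.81 (limma adjusted p = 0.0971, and 0.0235 with the replicate block). *CXCL2* departed by -0.210 ± 0.844 TPM and *IL6* by 0.569 ± 0.296 TPM, with log2 interactions of -0.14 and 0.33 (limma adjusted p = 0.993 and 0.782). By the 3 thresholds none of the 5 genes had a changed interaction, where 0.478% of all tested gene IDs did. At an unadjusted limma p under 0.05 there were 2, *CCL2* and *CXCL1*, where 7.67% of all tested gene IDs were under it.

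**Figure D4:**
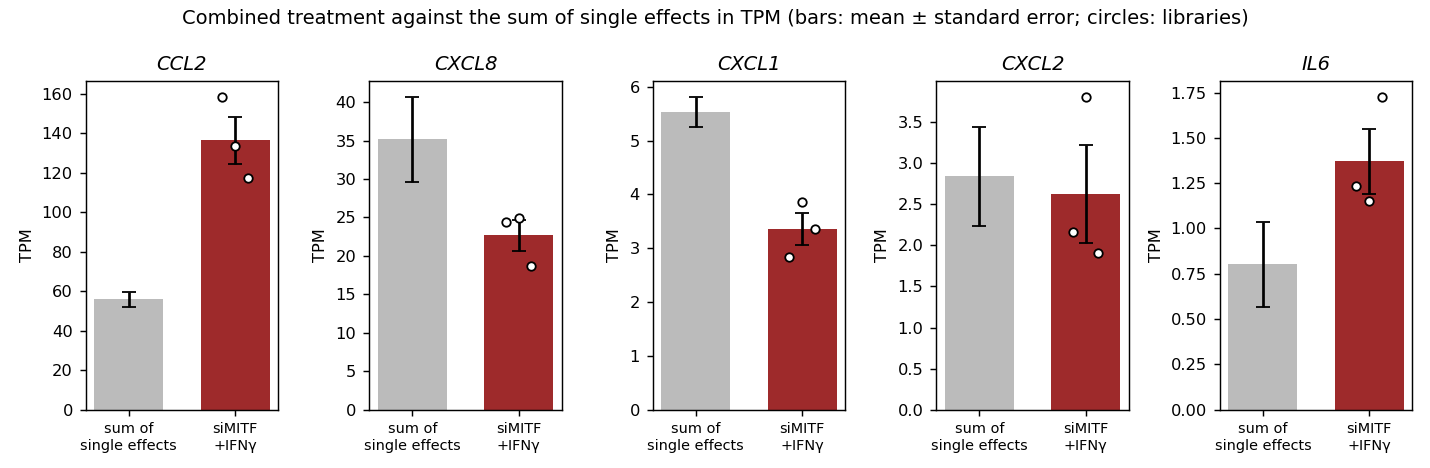
TPM (vertical axes, from 0, with a scale of its own per gene) expected from the sum of single effects (grey) and measured with both treatments (red) for the 5 genes that passed the filter, as bars with the mean ± standard error and circles for the 3 siMITF + IFNγ libraries. *CCL2* lay above the sum by 80.7 TPM, *CXCL1* and *CXCL8* lay below it by 2.18 and 12.5 TPM, and for *CXCL2* the bars differed by less than their errors.

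Among 36 other chemokine ligand genes, 6 reached a mean of 2 TPM in a condition, 30 stayed under 1 TPM in every condition and 5 were listed at 0 throughout. Of the 6 tested, 4 rose with IFNγ in siCTRL cells and 4 in siMITF cells (2.42% and 2.72% of all tested gene IDs). The interaction met the thresholds for 3 of the 6 (0.478% of all tested). *CXCL9*, *CXCL10* and *CXCL11*, the CXCR3 ligands that attract T cells, rose with IFNγ by 6.01, 7.28 and 3.81 on the log2 scale in siCTRL cells and by 7.93, 9.06 and 4.88 in siMITF cells. Their interactions were 1.93, 1.78 and 1.07 (limma adjusted p = 1.9e-04, 3.3e-04 and 0.0338) with a pseudocount of 1. Without IFNγ all 3 were under 1 TPM in every library, so they passed the filter through the IFNγ conditions alone, and the interactions depended on the pseudocount. At 0.1 they were 2.10, -0.030 and 0.39 (limma adjusted p = 0.00255, 0.998 and 0.978), so that of *CXCL9* alone of these 3 met the thresholds there. *CCL8*, another monocyte chemoattractant gene on chromosome 17 (34319435 to 34321402), was at 4.86, 5.96 and 4.10 TPM in siCTRL + IFNγ libraries and 7.81, 6.87 and 7.13 TPM in siMITF + IFNγ libraries. Without IFNγ *CCL8* was at most at 0.0471 TPM in siCTRL and siMITF libraries alike, while *CCL2* differed 24.0-fold between them. *CCL8* thus also passed the filter through the IFNγ conditions alone. *CCL7*, a further gene of the CCL2 family, had a condition mean of at most 0.134 TPM, and *CCL11* was listed at 0.

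*CXCL3* (chromosome 4 from 74036589 to 74038807), a CXCR2 ligand next to *CXCL2*, was at 2.18, 1.97 and 1.58 TPM in siCTRL, 1.76, 1.97 and 1.97 TPM in siCTRL + IFNγ, 2.75, 3.37 and 3.09 TPM in siMITF and 1.72, 1.42 and 2.12 TPM in siMITF + IFNγ libraries. As for *CXCL8* and *CXCL1*, the siMITF libraries lay above those of the other conditions, with log2 differences of 0.49 with siMITF (limma adjusted p = 0.00820) and -0.57 with IFNγ in siMITF cells (limma adjusted p = 0.00596). Both were under the fold threshold. *CXCL14* was at 3.39, 3.33 and 3.15 TPM in siMITF and 0.0331, 0.220 and 0.0707 TPM in siCTRL libraries, and rose with siMITF by 1.96 (limma adjusted p = 6.2e-08). It was the 1 gene of the 6 tested that rose with siMITF (3.22% of all tested gene IDs). It passed the filter through the siMITF conditions alone.

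Of 12 receptor genes for these ligands, 10 stayed under 1 TPM. *CCR2*, the CCL2 receptor, had a highest condition mean of 0.00244 TPM, and *CXCR1* and *CXCR2*, the CXCL8 receptors, had at most 0.00666 and 0.0564 TPM. The 2 that passed were the receptor chains of IL6. *IL6R* fell with siMITF by 1.17 on the log2 scale (limma adjusted p = 1.7e-04), from 41.4, 53.0 and 49.0 TPM in siCTRL to 19.0, 22.8 and 20.0 TPM in siMITF libraries, and no library of one condition reached the other. Among all tested gene IDs 2.88% fell with siMITF. *IL6ST*, which encodes gp130, had a log2 difference of -0.86 in that comparison (limma adjusted p = 0.0626, and 9.1e-04 with the replicate block), under the fold threshold in both fits.

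Downstream of IL6, *STAT3* and *SOCS3*, the feedback inhibitor of that pathway, rose with IFNγ. *SOCS3* was at 0.626, 0.964 and 1.23 TPM in siCTRL and 11.1, 13.2 and 11.6 TPM in siCTRL + IFNγ libraries, a rise of 2.75 (limma adjusted p = 5.7e-09). *STAT3* rose by 1.79 (adjusted p = 1.2e-05), from a mean of 31.7 to 113 TPM. Of the 13 genes of the IL6 family list 6 were tested, and these were the 2 that rose with IFNγ in siCTRL cells and the 2 that rose in siMITF cells, where 2.42% and 2.72% of all tested gene IDs rose. With siMITF none changed, against 6.10% of all tested. *IL6* itself did not rise in any of these comparisons.

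The shedding list held 5 genes, the proteases that release membrane-bound ligands such as CX3CL1 and CXCL16, the inactive rhomboids that regulate them and *TIMP3*, an inhibitor of ADAM proteases. *ADAM10* and *ADAM17* met the thresholds in none of the comparisons, at means of 142 to 179 and 34.9 to 38.3 TPM over the conditions. *RHBDF1*, an inactive rhomboid that brings ADAM17 to the cell surface, rose with siMITF by 1.06 (limma adjusted p = 4.8e-05), where 3.22% of all tested gene IDs rose. *RHBDF2*, its paralog, rose with both treatments against siCTRL by 1.06 (limma adjusted p = 2.9e-04), where 5.61% of all tested gene IDs rose. *TIMP3* had log2 differences of -0.52 with IFNγ in siCTRL cells and -0.42 in siMITF cells (limma adjusted p = 0.0113 and 0.0232), under the fold threshold.

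Of 18 genes for NF-κB, AP-1, C/EBP and related regulators 17 were tested. With siMITF 3 rose and 1 fell, against 3.22% and 2.88% of all tested, and their median log2 difference was 0.16 against 0.06 over all tested gene IDs. *CEBPD*, a C/EBP factor of the acute-phase response, rose by 1.98 (limma adjusted p = 1.2e-06), from 2.53, 3.72 and 2.45 TPM to 13.1, 16.6 and 13.3 TPM. *BCL3*, an atypical IκB protein, rose by 1.34 (limma adjusted p = 1.2e-06) and *JUN*, an AP-1 subunit, by 1.32 (limma adjusted p = 4.6e-06). *TNFAIP3* (A20), an inhibitor of NF-κB signaling, fell by 1.33 (limma adjusted p = 1.4e-05), from 94.6, 97.4 and 95.8 TPM to 37.5, 38.2 and 37.2 TPM. For *CEBPD* and *TNFAIP3* the siCTRL and siMITF libraries did not overlap.

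The NF-κB subunit genes *NFKB1*, *RELA* and *REL* had log2 differences of 0.16, 0.05 and 0.05 with siMITF, none past the p threshold. *NFKB2*, a further subunit gene, had a log2 difference of 0.70 with siMITF. It passed the p threshold (limma adjusted p = 1.3e-05 with the replicate block) and not the fold threshold. With IFNγ in siCTRL cells 3 of the 17 rose and none fell (2.42% and 0.102% of all tested), with a median of 0.28 against -0.07 over all. These were *IRF1*, an interferon-induced transcription factor, by 4.66, *CEBPD* by 1.61 and *BCL3* by 1.27 (limma adjusted p = 2.2e-11, 1.5e-05 and 3.5e-06). In siMITF cells 1 of the 17 rose with IFNγ (2.72% of all tested), *IRF1*, by 5.25. *NFKBIA*, the IκBα gene and a classical NF-κB target, had log2 differences of 0.40 with siMITF and 0.56 with IFNγ in siCTRL cells (limma adjusted p = 0.00513 and 0.00136), under the fold threshold.

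**Figure D5:**
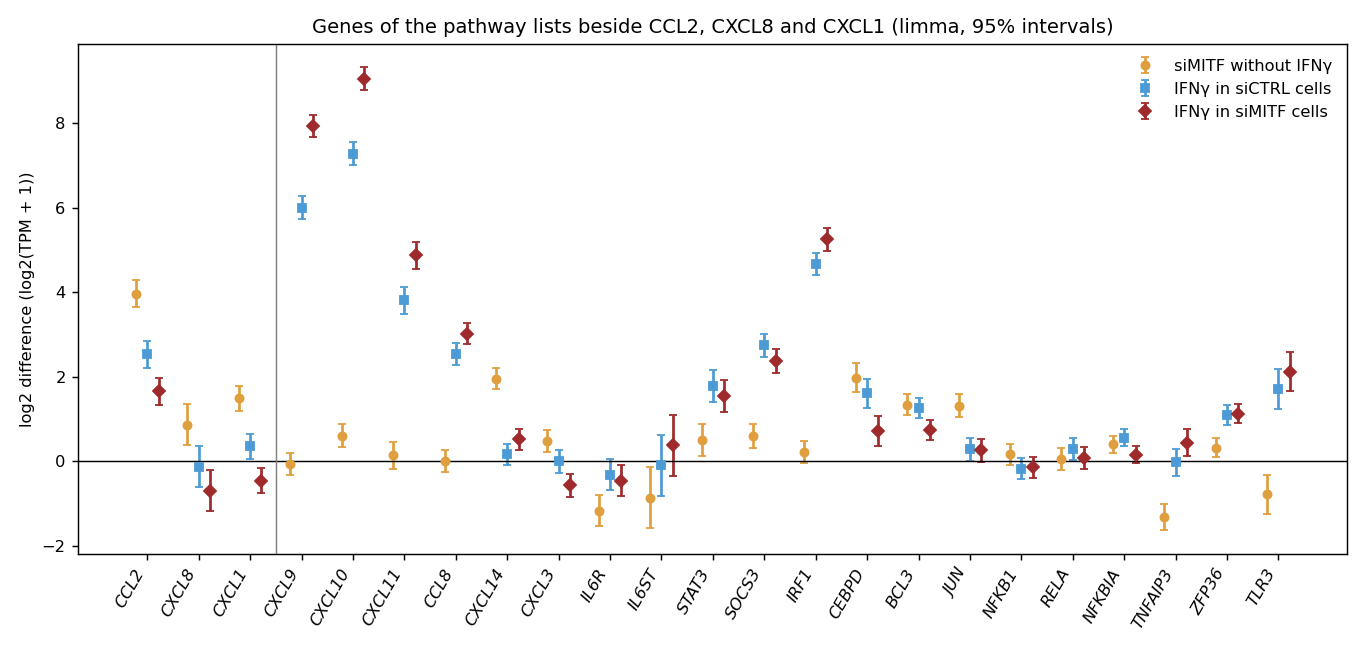
Differences in log2(TPM + 1) from limma with 95% intervals (vertical axis) for *CCL2*, *CXCL8* and *CXCL1* and for 20 genes of the chemokine, receptor, IL6, regulator, NF-κB input and mRNA decay lists (horizontal axis), for siMITF without IFNγ (circles), IFNγ in siCTRL cells (squares) and IFNγ in siMITF cells (diamonds). *CEBPD* and *BCL3* were, like *CCL2*, above 1 with siMITF and with IFNγ in siCTRL cells, while *CXCL9*, *CXCL10*, *CXCL11*, *CCL8* and *IRF1* were above 1 with IFNγ and under 1 with siMITF.

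Of 18 genes for cytokines and receptors that feed into NF-κB, 6 were tested. With siMITF none changed (6.10% of all tested did), and with IFNγ 1 rose in siCTRL cells and 1 in siMITF cells (2.42% and 2.72% of all tested), *TLR3*, the receptor for double-stranded RNA, by 1.72 and 2.12. *IL1A*, *IL1B* and *TNF*, the classical inducers of these chemokines, had condition means of at most 0.0886, 0.0837 and 2.0e-04 TPM. Among 7 genes that control decay of AU-rich mRNAs such as those of *CXCL8* and *IL6*, *ZFP36* (tristetraprolin), which speeds their decay, rose with IFNγ. The rise was 1.10 in siCTRL cells and 1.13 in siMITF cells (limma adjusted p = 9.3e-06 and 6.1e-06). The other 6 did not change in these comparisons, where 2.42% and 2.72% of all tested gene IDs rose. Of 15 other inflammatory genes 2 were tested. *ICAM1*, the leukocyte adhesion receptor, and *C3*, complement component 3, rose with IFNγ in siCTRL cells by 3.12 and 1.83 (2.42% of all tested). In siMITF cells they rose by 3.15 and 3.31 (2.72% of all tested). *C3* also rose with siMITF under IFNγ by 1.51 (3.12% of all tested). Its interaction, the IFNγ effect in siMITF minus that in siCTRL cells, was 1.48 and met the thresholds (0.478% of all tested; limma adjusted p = 0.0178 with the replicate block).

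The genes whose pattern over the 12 libraries was most like that of *CCL2* were *S100B*, *TAGLN*, *PRAF2*, *RHOU* and *NECTIN2*, with Pearson correlations of log2(TPM + 1) of 0.998, 0.995, 0.994, 0.993 and 0.992. Most of each correlation comes from the 4 condition means that the libraries share, and 79 tested gene IDs reached 0.95. *S100B*, a calcium-binding marker of the neural crest lineage, had means of 81.8, 133, 167 and 226 TPM in the order siCTRL, siCTRL + IFNγ, siMITF, siMITF + IFNγ. *TAGLN*, an actin-binding protein, had 0.734, 2.84, 4.80 and 9.16 TPM. Both thus had the same order of conditions as *CCL2* with smaller ratios. For *CXCL1* the nearest were *APOBEC3B* and *COL6A1* (0.980 and 0.975), for *CXCL8* *ENSA* and *ATP5MC2* (0.949 and 0.940), for *CXCL2* *LRP4* and *DBR1* (0.912 and 0.909), and for *IL6* *VASP* and *PHACTR1* (0.890 and 0.888). With condition means removed, the correlations were 0.647 and 0.732 for *CXCL1*, 0.860 and 0.891 for *CXCL8*, 0.859 and 0.873 for *CXCL2*, and 0.901 and 0.823 for *IL6*. Likeness for *CXCL8*, *CXCL2* and *IL6* was thus also high within conditions, and the part of the replicate numbers in it was not tested.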

How the data were processed

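RNA was sequenced from 12 libraries, 3 per condition, grouped by the sample labels. Per the labels and the study's methods, the authors trimmed reads with Trimmomatic 0.39, quantified them with kallisto on the Ensembl GRCh38 transcriptome and deposited TPM per Ensembl gene ID. The Ensembl release is not given in the sources used here. The authors' DESeq2 comparisons are not used here. No table column was left without a sample.

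The 8 genes and the gene lists were chosen with earlier results of these data known, and the named genes are those 8, the changed genes of each list and, for likeness, genes among the nearest 5 by correlation. Some genes are not reported here. Symbols and positions are from GENCODE 44. Values were transformed to log2(TPM + 1), which understates changes of low genes, and fitted with limma 3.58.1 in R 4.3.3 (1 coefficient per condition, intensity trend, two-sided). The fit was checked on simulated data. The figures were made in Python 3.11.15. Same-numbered libraries of different conditions deviated together, with correlations across genes of 0.102 to 0.625 in 18 pairs, against a median of -0.196 for different numbers, so the numbers were treated as paired in an alternative fit. Alternatives were other pseudocounts, filters, normalizations and thresholds, no trend, fewer conditions in the fit, sums by symbol, the replicate block and each library left out.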

Additional observations from a re-analysis of the deposited data

Results flagged for a closer look

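For *CCL5*, the IFNγ effect in siMITF cells exceeded that in siCTRL cells by 0.57 on the log2 scale (limma adjusted p = 0.0245, without a filter on low values). This is a difference between groups by the test of the interaction itself, past the p threshold and under the fold threshold. Of the 29003 gene IDs, 0.352% had a higher interaction with an adjusted p under 0.05. The gene was at 0.874, 0.790 and 0.900 TPM in siMITF + IFNγ libraries and under 2 TPM in every condition, so it was not in the main test, and 25.2% of its 31-base words are shared with other genes.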

How the results depend on the processing

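Depth is unknown, so counting error at low TPM cannot be given, and values below about 2 TPM (*IL6*, *CXCL2*, *CCL5*, *CX3CL1*, *CXCL16*, and *CXCL1* and *CCL2* in siCTRL cells, on which their folds rest) are the least certain. Of the 8 genes, the number changed with siMITF was 1 in place of 2 when the mean over the 12 libraries had to reach 5 TPM, by the alternative's own construction, since *CXCL1* was no longer tested, and 2 to 3 when single libraries were left out (3 without siCTRL replicate 2, *CXCL8* added). For both treatments against siCTRL it was 1 in place of 2 with that filter, and 1 with quantile normalization, where the cause was not tested, and 1 to 2 when single libraries were left out. For the interaction it was 1 in place of 0 with pseudocounts of 0.1 and 0.5, *CCL2* at -1.34 and -1.11, a pseudocount under 1 shrinking low values less. The departure of *CCL2* was positive in TPM and -0.87 on the log2 scale, which compares ratios. With the replicate number as a block no count of changed genes moved, and the limma adjusted p of *CCL2*'s interaction went from 0.0851 to 0.0112. Without a filter on low values that adjusted p was 0.195. The *CXCL2* difference with siMITF turned to -0.12 with quantile normalization and to -3.0e-04 and -2.9e-04 without siCTRL replicate 1 or 3, its range over single libraries left out ending at 0.28. With siMITF under IFNγ it turned to 0.035, 0.096 and 0.12 without siMITF + IFNγ replicate 1 or 3 or siCTRL + IFNγ replicate 2 (lowest value -0.27), its interaction to 0.0034 and 0.031 (lowest -0.36), and its departure to 0.0208, 0.150 and 0.246 TPM (lowest -0.800). The *CXCL8* difference with IFNγ in siCTRL cells turned to 0.14 and 0.058 without siCTRL replicate 2 or siCTRL + IFNγ replicate 3 (lowest -0.32). None of these turned values passed a threshold, and their causes were not tested.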
